A study of Mus musculus with 4 samples.

Results

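The 10 genes described here encode transcription factors of the midbrain dopamine neuron lineage: the homeodomain proteins En1 and En2, the forkhead proteins Foxa1 and Foxa2, the orphan nuclear receptor Nr4a2 (Nurr1), the paired-type homeodomain protein Pitx3, the LIM homeodomain proteins Lmx1a and Lmx1b, and the helix-loop-helix proteins Ebf1 and Ebf3. They were taken by name, as every probe set whose platform annotation gives one of these symbols and no other, which found 22 probe sets for the 10 genes out of 18193 genes that had such a probe set. A probe set is a group of short probes on the array that report on 1 transcript or on a few. Affymetrix mouse arrays were used to measure a pair of fractions of adult midbrain, TRAP RNA (replicates 2 and 4) and input RNA (replicates 1 and 2), where 5 mice were pooled per array. Inputs were collected in parallel with the TRAP samples, so TRAP replicate 2 and input replicate 2 may come from the same mice, while the fit treats all 4 arrays as independent. The mice were of both sexes, aged 6 to 12 weeks, and heterozygous for the Slc6a3 JD1640 TRAP transgene, a bacterial artificial chromosome in which the dopamine transporter gene Slc6a3 drives eGFP/RPL10A, a GFP-tagged ribosomal protein. In TRAP, tagged ribosomes are pulled down with an antibody to GFP together with the mRNA they hold, and the input is RNA of the whole dissected midbrain. The labels call that second fraction unbound (total) RNA. Both fractions came from carriers of the transgene, so all values describe 1 transgenic line, with FVB founders bred to C57BL6/j. In whole-tissue input, fewer cells of a type and less RNA per cell cannot be told apart.

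These factors act in sequence in the floor of the embryonic midbrain. Foxa1, Foxa2, Lmx1a and Lmx1b specify dopamine progenitors, Nr4a2 and Pitx3 switch on the genes for making, storing and taking up dopamine in the newborn neurons, and En1 and En2 pattern the midbrain and are needed for the neurons to survive. Most of them stay on in the adult, where loss of Nr4a2, Pitx3, En1 or the Foxa genes in mice harms dopamine neurons. Ebf1 and Ebf3 act in the differentiation and migration of many kinds of neuron, and Ebf1 is also a factor of B cells, fat cells and pericytes.

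Levels are in arbitrary expression units, the linear form of the authors' GCRMA log2 values, and 50 units was taken as background. Changes are counted only where both arrays of at least 1 fraction reached that level, and 15 of the 22 probe sets, from 9 of the 10 genes, did so. For each gene the brightest probe set was read first. TRAP RNA held more of 7 of these 9 genes than input RNA (En1, Foxa1, Foxa2, Nr4a2, Pitx3, Lmx1b and Ebf3), less of none, and En2 and Ebf1 did not pass the test (limma over 45037 probe sets, Benjamini-Hochberg adjusted p under 0.05). Over all 10014 genes above background 18.7% were higher in TRAP by the same rule and 6.87% were lower. En1, Foxa2 and Pitx3 reached background in TRAP only, so under this rule they could not have been counted as lower. By probe set, 10 of the 15 rose and 2 fell, where 18.8% and 9.13% of all probe sets above background did. The median log2 fold change of TRAP over input was 3.75 for the 9 genes and 0.44 for all genes above background, and 3.55 and 0.42 with levels under 50 units set to 50. On 12 of the 15 probe sets both TRAP arrays lay above both input arrays (51.5% of all probe sets above background), and on the other 3, all of Ebf1, both lay below (24.9%). The number of genes that rose was 2 without TRAP replicate 2 or TRAP replicate 4, 4 without input replicate 1, 3 without input replicate 2, and 3 with values under 50 units raised to 50. Leaving out 1 of 2 arrays leaves 1 residual degree of freedom and takes all the error from the other fraction, so a lost call there does not show a smaller change. The 2 genes higher without a TRAP array, Foxa2 and Pitx3, had identical input values and so no residual spread in those fits. The 3 genes higher with values raised to 50 were En1, Foxa2 and Pitx3. Both of their input arrays are set to 50 units there, which leaves no input spread. No fold change of the 9 genes changed sign under any of these settings.

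**Figure D1:**
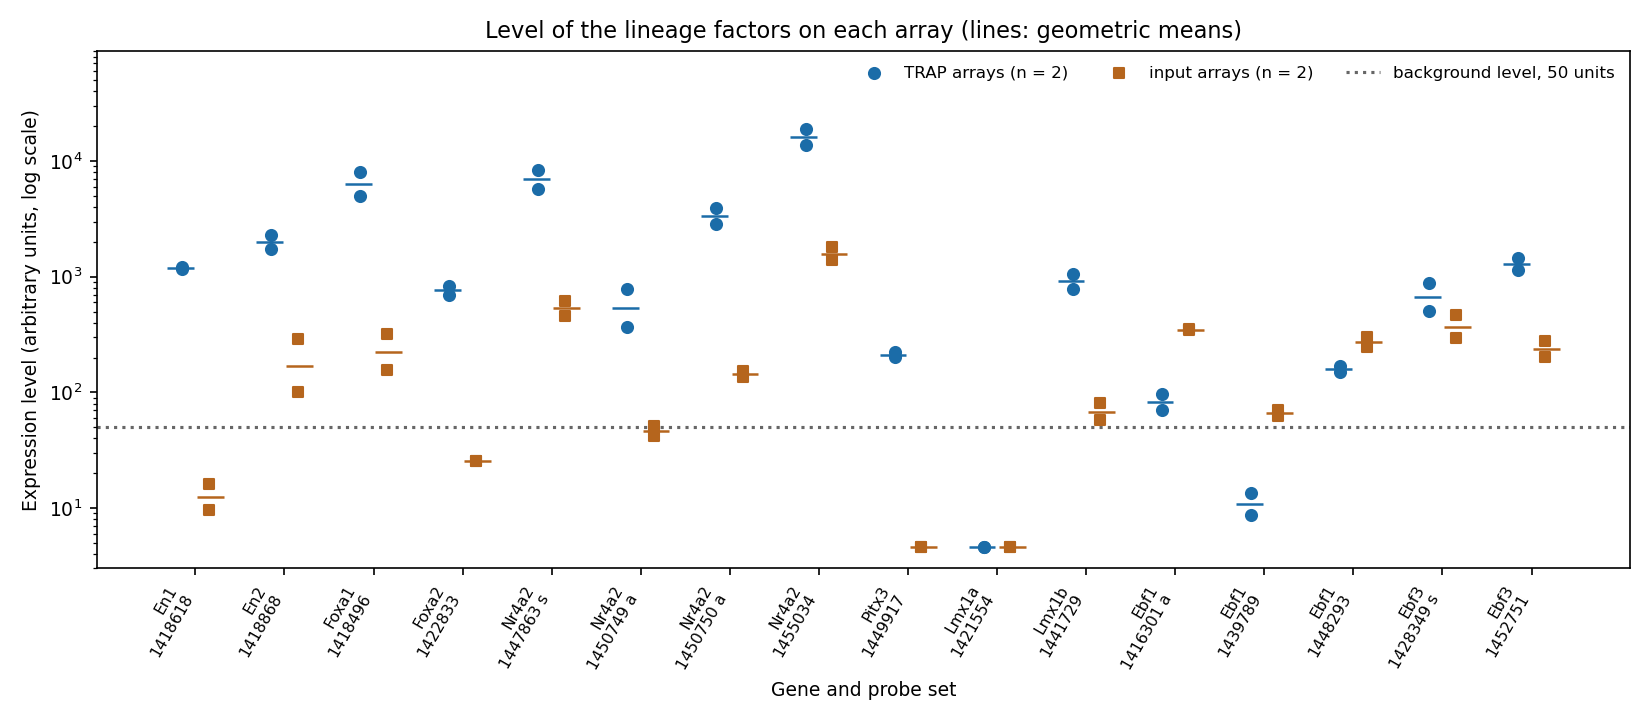
Levels, in arbitrary units on a log axis, of the 15 probe sets above background and of the Lmx1a probe set, by gene and probe set number. TRAP arrays (n = 2) are drawn as circles and input arrays (n = 2) as squares, with geometric means as short lines and 50 units dotted. The input arrays of En1, Foxa2 and Pitx3 lie under the dotted line, Lmx1a lies at the bottom on all 4 arrays, and the 3 Ebf1 probe sets are the ones with TRAP below input.

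The promoters of 4 of these genes are shown because the genes span the range of the results: En1 and Pitx3 were above background in TRAP only, Foxa1 had the largest fold change among genes measured in both fractions, and Lmx1a was at the floor of the arrays. Each line gives the 250 bases before the annotated start, 5′ to 3′ on the gene's strand, from RefSeq (GRCm38.p6), where 9 of the 10 genes had an entry. Capitals mark matches on either strand to sites that these factors are known to bind, searched as AAAGGTCA for Nr4a2, TGTTTAC for forkhead proteins, TAATTA for homeodomain proteins, TAATCC for Pitx proteins and CCCNNGGG for Ebf proteins. The En1 window lies at chr1:120602237-120602486 (plus strand), Pitx3 at chr19:46148326-46148575 (minus strand), Foxa1 at chr12:57546112-57546361 (minus strand) and Lmx1a at chr1:167689308-167689557 (plus strand).
En1: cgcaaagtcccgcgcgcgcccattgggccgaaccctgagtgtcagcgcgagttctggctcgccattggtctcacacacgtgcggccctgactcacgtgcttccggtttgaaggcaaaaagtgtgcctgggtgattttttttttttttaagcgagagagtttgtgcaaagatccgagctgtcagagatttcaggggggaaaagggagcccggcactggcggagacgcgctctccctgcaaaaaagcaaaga
Pitx3: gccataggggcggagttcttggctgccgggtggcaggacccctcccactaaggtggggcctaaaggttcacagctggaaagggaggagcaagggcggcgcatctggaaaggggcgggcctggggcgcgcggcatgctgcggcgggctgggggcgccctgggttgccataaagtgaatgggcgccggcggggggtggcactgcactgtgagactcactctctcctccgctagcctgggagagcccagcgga
Foxa1: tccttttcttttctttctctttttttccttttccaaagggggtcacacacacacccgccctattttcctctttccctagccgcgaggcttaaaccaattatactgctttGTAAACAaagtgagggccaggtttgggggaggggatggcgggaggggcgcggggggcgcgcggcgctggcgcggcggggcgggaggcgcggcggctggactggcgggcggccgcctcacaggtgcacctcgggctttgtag
Lmx1a: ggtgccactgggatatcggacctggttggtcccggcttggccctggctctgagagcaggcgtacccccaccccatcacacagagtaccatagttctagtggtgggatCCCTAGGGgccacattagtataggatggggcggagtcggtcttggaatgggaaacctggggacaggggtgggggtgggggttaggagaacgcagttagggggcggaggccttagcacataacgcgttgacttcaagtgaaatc

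The Foxa1 window held 1 forkhead match, 141 bases before the start, and 3.17% of all 32851 windows in the table hold one. Lmx1a and Ebf3 each held 1 match to the Ebf letters, which 11.8% of all windows hold. The Nr4a2, homeodomain and Pitx letters were in none of the 12 windows of the 9 genes, against 1.34%, 4.84% and 6.25% of all windows. The GC content of the 12 windows ran from 40.0% for 1 of the 2 Ebf1 starts to 80.0% for Nr4a2 and Ebf3, with a median of 60.6%, against a median of 52.4% over all windows. The windows shown have 56.0% GC for En1, 68.8% for Pitx3, 62.0% for Foxa1 and 59.2% for Lmx1a. A match of letters describes the window and is not a measured binding site.

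En1 (probe set 1418618_at), an engrailed factor needed for nigral neurons to survive in adult mice, read 1213 and 1161 units in TRAP, against 16.0 and 9.66 units in input. TRAP averaged 1187 ± 36.5 units and input 12.8 ± 4.48 (SD, n = 2 each). Both input arrays lay under background, so the difference is a bound, at least 23.7-fold higher in TRAP. The limma adjusted p was 0.00494 for the deposited values and 0.000949 with values under 50 units raised to 50. Raising sets both En1 input arrays to 50 units, so the error there reflects the TRAP arrays alone. The smaller value is therefore not stronger evidence. Without TRAP replicate 2 or TRAP replicate 4 the adjusted p from limma was 0.0752 and 0.0756. Its relative En2, which is shared by the midbrain and the cerebellum, read 1729 and 2285 units in TRAP (1418868_at) and 289 and 100.1 units in input. The TRAP arrays of En2 were above both input arrays, but the input arrays differed 2.89-fold from each other. Its log2 fold change was 3.55 (standard error 0.73, 95% interval 0.77 to 6.33), or 11.7-fold, and it missed the threshold (limma adjusted p = 0.0623). It passed with an adjusted p of 0.0480 from limma without input replicate 1. Within each array, En1 minus En2 was -0.51 and -0.98 log2 units in TRAP and -4.17 and -3.37 in input, a change of 3.03 that rests on En1 input levels under background. An exact permutation test of 2 against 2 arrays gave p = 0.333, the smallest it can give, 2-sided.

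Most cerebellar markers were also higher on input replicate 1 than on input replicate 2. Of 7 cerebellar granule and Purkinje cell markers above background 6 were higher on it, with a median of -1.59 log2 units for replicate 2 minus replicate 1. Zic1 hardly differed, at 8037 and 8028 units on replicates 1 and 2, and Calb1 was 1.17-fold higher on replicate 1. Between the fractions, Calb1 was higher in TRAP (limma adjusted p = 0.0127) and Zic1 was lower (limma adjusted p = 0.0137). The same direction held for all 8 GABA neuron markers (median -0.38), 6 of 8 dopamine neuron markers (-0.47) and 6 of the 9 lineage factors (-0.36). Only 1 of 7 astrocyte markers (median 0.35) and 2 of 8 oligodendrocyte markers (0.14) were higher on replicate 1. Gabra6, a GABA receptor subunit of granule cells, read 104 and 132 units on the TRAP arrays, 564 on input replicate 1 and 5.10 on input replicate 2. Tph2, the enzyme of serotonin synthesis in neurons that also use En1 and Lmx1b, read 294 units on both TRAP arrays, 604 on input replicate 1 and 69.3 on input replicate 2. The part of these cells in the input level of En2 was not tested.

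The forkhead factors bind closed chromatin and open it for others, and both are used by progenitors and by mature dopamine neurons. Foxa1 (1418496_at) read 5026 and 8115 units in TRAP and 322 and 157 units in input. TRAP averaged 6571 ± 2184 units and input 239.6 ± 117 (SD, n = 2 each), a 28.4-fold rise (4.83 on the log2 scale with a standard error of 0.58, limma adjusted p = 0.0240). This call was lost without any 1 of the 4 arrays, with adjusted p between 0.0674 and 0.130 from limma, while the log2 fold change stayed between 4.31 and 5.35. Foxa2 (1422833_at) read 698 and 835 units in TRAP and the same 25.7 units on both input arrays. It rose at least 15.3-fold. The limma adjusted p was 0.00116 for the deposited values and 0.0158 with values under 50 units raised to 50. Since its input values are identical, its error reflects the TRAP arrays alone, and the fits without a TRAP array have no error left to test with. Without input replicate 1 or input replicate 2 the limma adjusted p was 0.0260 and 0.0263. Foxa1 minus Foxa2 was 2.85 and 3.28 log2 units in TRAP and 3.65 and 2.61 in input, a change of -0.07 between the fractions that rests on Foxa2 input levels under background (exact permutation test, 2-sided, p = 1, smallest possible 0.333). Each gene had 1 probe set, so neither change was read by another.

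Nr4a2, the nuclear receptor without which midbrain dopamine neurons do not form in mice, had 6 probe sets. The brightest (1455034_at) read 13844 and 19037 units in TRAP and 1793 and 1399 units in input. TRAP averaged 16441 ± 3672 units and input 1596 ± 278 (SD, n = 2 each), a 10.3-fold rise (3.36 on the log2 scale with a standard error of 0.27, limma adjusted p = 0.0116). The other 3 probe sets of the gene above background rose as well. The one numbered 1450750_a_at read 2879 and 3934 units in TRAP and 154 and 137 in input, a 23.2-fold rise (limma adjusted p = 0.00456). A second (1447863_s_at) read 5739 and 8456 units in TRAP and 459.7 and 617 in input, a 13.1-fold rise (limma adjusted p = 0.0136). The third (1450749_a_at) read 369 and 777 units in TRAP and 51.1 and 41.7 in input, where 1 of the 2 arrays was under background, an 11.6-fold rise (limma adjusted p = 0.0344). The fold changes of the 4 ran from 10.3-fold to 23.2-fold, with 95% intervals of the log2 value that overlapped, 2.33 to 4.38 for the lowest and 3.69 to 5.39 for the highest. The remaining 2 read 4.71 to 7.42 units over the 4 arrays, under background. With any 1 array left out the brightest probe set missed the threshold, with adjusted p between 0.0674 and 0.0785 from limma, and so did 1447863_s_at, between 0.0720 and 0.0848. The call of 1450749_a_at was lost in all but the fit without TRAP replicate 2 (limma adjusted p = 0.0485), with values up to 0.167, and that of 1450750_a_at without input replicate 1 or input replicate 2 (0.0502 and 0.0530). With values under 50 units raised to 50, 1450750_a_at alone of the 4 passed (limma adjusted p = 0.0337).

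Pitx3, which in the brain is nearly restricted to midbrain dopamine neurons and whose loss in aphakia mice removes most nigral ones, read 201 and 224 units in TRAP (1449917_at) and 4.60 units on both input arrays. It rose at least 4.24-fold. The limma adjusted p was 0.000349 for the deposited values and 0.0197 with values under 50 units raised to 50. As for Foxa2, the identical input values leave no error in the fits without a TRAP array, and leaving out input replicate 1 or 2 gave a limma adjusted p of 0.0130 and 0.0131. The bound is set by the 50-unit background, and the input value is near the lowest value on the input arrays, 4.59 units.

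Lmx1a and Lmx1b act together in the floor plate and differed here in whether they were measured at all. Lmx1b read 785 and 1053 units in TRAP and 57.3 and 80.1 units in input on its brighter probe set (1441729_at), a 13.4-fold rise (3.75 on the log2 scale with a standard error of 0.30, limma adjusted p = 0.0113). The call was lost with any 1 array left out, with adjusted p between 0.0557 and 0.0936 from limma. Its other probe set read 13.4 units on both TRAP arrays and 4.59 on both input arrays, all under background. The Lmx1a probe set (1421554_at) read 4.58 units on both TRAP arrays and 4.59 on both input arrays, the floor of each fraction. No level of Lmx1a was therefore measured in either fraction, which does not show that the transcript is absent.

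Ebf3 rose on its brightest probe set, while the 3 Ebf1 probe sets above background were lower in TRAP. The brightest Ebf3 probe set (1452751_at) read 1153 and 1447 units in TRAP and 276 and 200.1 units in input, a 5.49-fold rise (2.46 on the log2 scale with a standard error of 0.26, limma adjusted p = 0.0197). A second Ebf3 probe set (1428349_s_at, whose suffix marks probes common to several transcripts) read 503 and 887 units in TRAP and 293 and 468 in input. It had a log2 fold change of 0.85 (95% interval -1.02 to 2.72) and did not pass (limma adjusted p = 0.260), and the third read 20.8 and 47.4 units in TRAP and 6.04 and 5.07 in input, under background throughout. With the mean of all its probe sets Ebf3 missed the threshold at 1.94 (limma adjusted p = 0.0564), and with any 1 array left out at adjusted p between 0.0632 and 0.130.

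Ebf1 ran the other way on each of its 3 probe sets above background. The brightest (1448293_at) read 168 and 150.4 units in TRAP and 299 and 246 in input, with a log2 fold change of -0.77 (standard error 0.15, 95% interval -1.34 to -0.20), and just missed the threshold (limma adjusted p = 0.0561). Another (1416301_a_at) read 96.9 and 70.7 units in TRAP and 351 and 344 in input, 4.20-fold lower in TRAP (-2.07 on the log2 scale with a standard error of 0.21, limma adjusted p = 0.0179). The third (1439789_at) read 8.67 and 13.5 units in TRAP, under background, and 70.7 and 62.1 in input, at least 1.32-fold lower in TRAP. Its limma adjusted p of 0.0238 is for the deposited values. With values under 50 units raised to 50 its log2 fold change was -0.41 and did not pass (limma adjusted p = 0.210). The number of Ebf1 probe sets that fell was 0 without input replicate 1 or input replicate 2 and 1 without TRAP replicate 2. Neither of the others reached 50 units on any array, 1 with 46.2 and 47.8 units in TRAP and 35.3 on both input arrays. With the arrays centred on bright probe sets, which moved the median log2 fold change of all probe sets above background to 0.03, the brightest Ebf1 probe set was at -1.18 and passed (limma adjusted p = 0.0114). Ebf1 relative to Ebf3 changed by -3.23 log2 units between the fractions, with within-array differences of -2.78 and -3.27 in TRAP and 0.12 and 0.30 in input (exact permutation test, 2-sided, p = 0.333, the smallest possible with 2 against 2 arrays).

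Ebf1 is also used by pericytes and mural cells. Of their 8 markers 4 were above background, all with TRAP under input on average (median -1.81 on the log2 scale), and 0 passed. Their summed level over the 8 genes was 905 and 270.1 units in TRAP and 1773 and 1765 units in input, and 4 or 5 of the 8 lay under background on each array. Pdgfrb, the receptor that defines pericytes, read 131 and 45.7 units in TRAP and 444 and 684 in input (limma adjusted p = 0.0852). Markers of striatal neurons, which use Ebf1 when they form, had a median of -1.08 over 4 genes above background (-0.41 with levels under 50 units set to 50), and 1 of them fell. Negative medians were not particular to these 2 lists. Astrocyte, oligodendrocyte, microglia and GABA neuron markers had medians of -2.24, -1.23, -2.40 and -1.34. Cerebellar markers had a median of 1.13, which became -0.32 with levels under 50 units set to 50. For dopamine neuron markers it was 4.45 either way. The part of mural cells and striatal neurons in the Ebf1 levels was not tested.

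**Figure D2:**
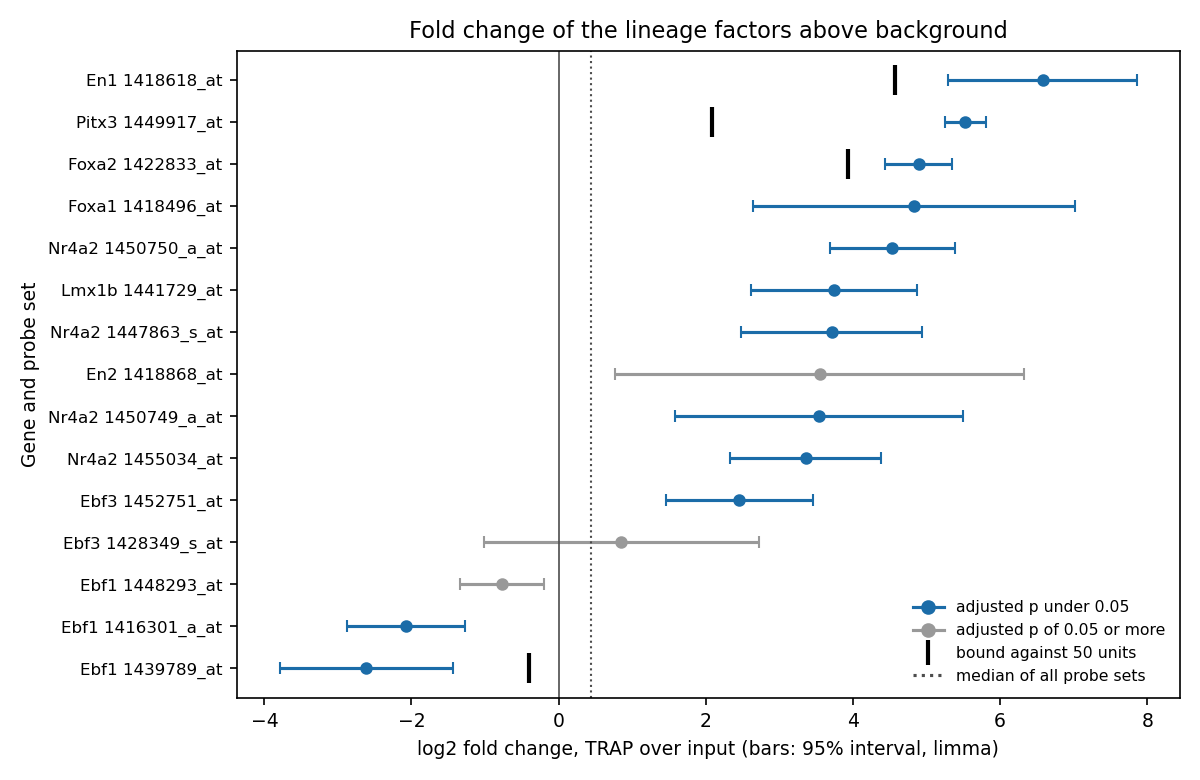
TRAP over input on the log2 scale for the 15 probe sets above background, with 95% intervals from limma (2 arrays a fraction). Blue passed the threshold, grey did not, black ticks are bounds against 50 units, and the dotted line is the median of all probe sets above background, 0.44. En1 tops the plot at a fitted 6.58 with a bound of 23.7-fold, 1428349_s_at of Ebf3 crosses 0, and the Ebf1 probe sets lie left of 0.

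The TRAP arrays also differed from each other. Of the 9 factors above background 7 were higher on TRAP replicate 4 than on replicate 2 (median 0.33 log2 units), as were all 8 dopamine neuron markers (median 0.33). The median over all probe sets above background was 0.006. Foxa1 had the largest such difference of the factors, 1.61-fold, while En1 and Ebf1 were slightly higher on replicate 2 (replicate 4 minus replicate 2, -0.06 and -0.16 log2 units). Markers of other cells were mostly lower on replicate 4: all 8 oligodendrocyte markers (median -1.56), all 8 GABA neuron markers (median -1.46) and 6 of 7 astrocyte markers (median -0.76) were. All 8 dopamine neuron markers rose in TRAP, and the 7 astrocyte and 8 oligodendrocyte markers above background had negative fold changes, of which 2 and 0 passed. The Gapdh control probe sets, a check of RNA length, differed between their 3′ and 5′ ends by 4.96 and 3.52 log2 units in TRAP and 6.81 and 6.39 in input. The median level of an array was 7.28 and 7.13 units in TRAP, against 10.2 and 10.1 units in input, and 35.2% to 35.8% of probe sets reached 50 units. These differences describe single arrays and their part in the fold changes was not tested.

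**Figure D3:**
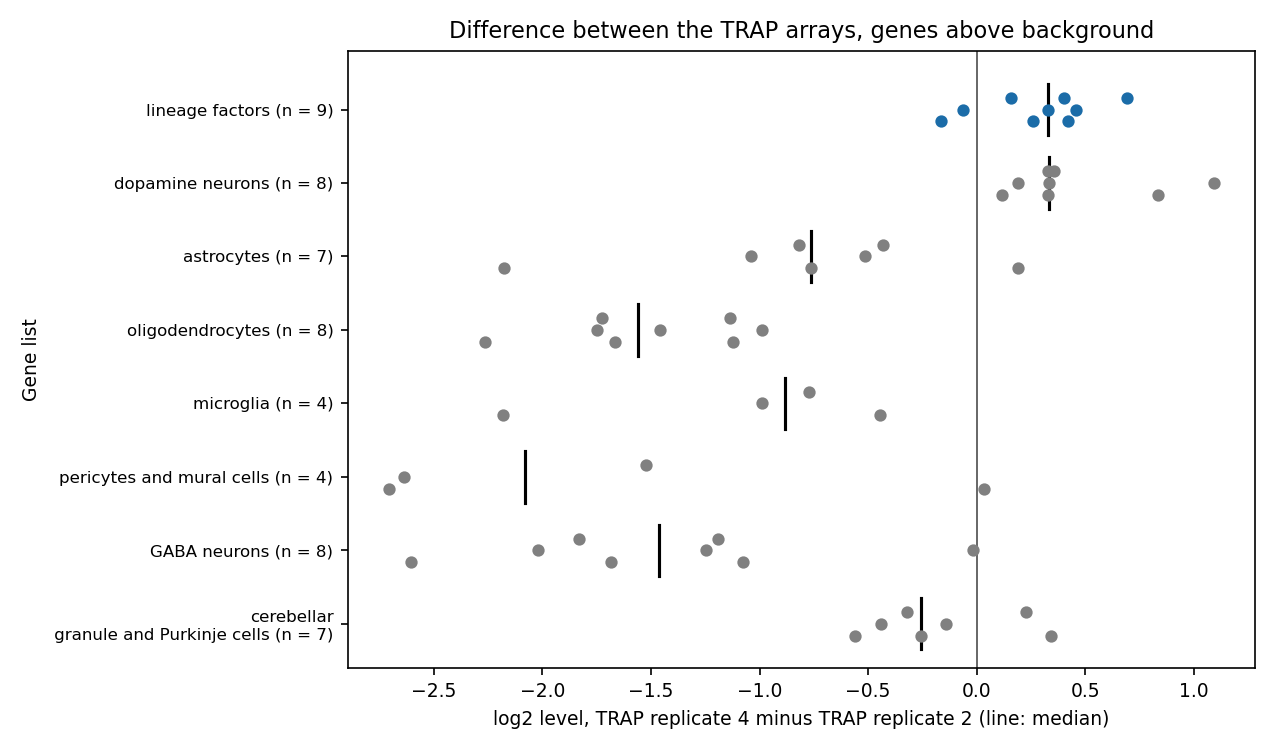
Difference of the log2 level between TRAP replicate 4 and TRAP replicate 2 for the lineage factors and 7 cell type marker lists, 1 point per gene above background, with the median as a line. The lineage factors and the dopamine neuron markers lie mostly right of 0 (medians 0.33 and 0.33) and the oligodendrocyte and GABA neuron markers left of it (medians -1.56 and -1.46).

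Of 6 family relatives measured, 3 were above background, 1 rose and 1 fell, where 18.7% and 6.87% of all genes above background did. Ebf4 read 93.7 and 80.0 units in TRAP and 43.1 and 42.8 in input, at least 1.73-fold higher in TRAP. Its limma adjusted p of 0.0188 is for the deposited values, and it did not pass with values under 50 units raised to 50. Nr4a3, an activity-induced receptor of the Nr4a2 family, read 173 and 143 units in TRAP and 405 and 493 in input and was 2.84-fold lower in TRAP (limma adjusted p = 0.0246). Nr4a1, its other relative, had a log2 fold change of 0.56 and did not pass (limma adjusted p = 0.0852). The fall of Nr4a3 was lost with any 1 array left out, and the rise of Ebf4 without input replicate 1 or input replicate 2.

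Of 18 partners and corepressors of the factors measured, 16 were above background, 1 rose and 1 fell, and their median log2 fold change was -0.06. For all genes above background the median was 0.44, and 18.7% rose and 6.87% fell. Pbx3, a homeodomain partner of engrailed and other homeodomain proteins, read 15869 and 19855 units in TRAP and 5139 and 4701 in input and rose 3.61-fold (1.85 on the log2 scale with a standard error of 0.16, limma adjusted p = 0.0134). Ldb2, which bridges LIM homeodomain proteins such as Lmx1b, read 465 and 392 units in TRAP and 728 and 709 in input and fell by 0.75 on the log2 scale (limma adjusted p = 0.0378). Sfpq, a reported corepressor partner of Nr4a2, had a log2 fold change of 1.21 (limma adjusted p = 0.0667), and Rxrb, a retinoid receptor that can pair with Nr4a2, 0.62 (limma adjusted p = 0.252), and neither passed. With any 1 array left out 0 to 2 partners rose and 0 to 1 fell.

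The list of genes reported as targets of these factors includes the 8 dopamine neuron markers, so both lists share those values. All 16 targets were above background, 13 rose and 0 fell, with a median log2 fold change of 2.78. Among all genes above background 18.7% rose and 6.87% fell. The largest of the targets were Drd2, the D2 dopamine receptor (3319 and 4246 units in TRAP, 53.0 and 49.0 in input), Th, tyrosine hydroxylase, which starts dopamine synthesis, Gch1, which makes its cofactor, and Slc18a2, the vesicular monoamine transporter. Their log2 fold changes were 6.20, 5.72, 5.48 and 5.24 (adjusted p = 0.00148, 0.00213, 0.0140 and 0.0259 from limma). With any 1 array left out 6 or 7 of the 16 rose.

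Other factors described in midbrain dopamine neurons were split. Of 12 measured, 9 were above background, 3 rose and 0 fell, with a median log2 fold change of 1.73. The shares of all genes above background were 18.7% and 6.87%. Bnc2, a zinc finger protein, read 1524 and 1772 units in TRAP and 137 and 159 in input and rose by 3.47 on the log2 scale (standard error 0.14, limma adjusted p = 0.00317). Insm1, a zinc finger factor of newborn neurons and endocrine cells, rose by 2.96 (435 and 603 units in TRAP, 60.9 and 71.6 in input, limma adjusted p = 0.0120), and Satb1, a chromatin organiser, by 2.83 (5830 and 8211 units in TRAP, 732 and 1301 in input, limma adjusted p = 0.0396). Tcf12, a widely used helix-loop-helix protein, was at -0.88 and did not pass (limma adjusted p = 0.0624). With any 1 array left out 1 or 2 of the 9 rose.

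The listed genes of embryonic midbrain patterning and neurogenesis were mostly under background. Of 21 measured, 8 were above background, as were 10014 of all 18193 genes. Of the 8, 2 rose and 1 fell, where 18.7% and 6.87% of all genes above background did. The median log2 fold change of the 8 was -2.11, or -0.90 with levels under 50 units set to 50. Shh, the secreted signal of the floor plate, read 2012 and 2066 units in TRAP and 1191 and 1090 in input and rose by 0.84 on the log2 scale (standard error 0.06, limma adjusted p = 0.00977). Otx1, a midbrain and forebrain homeodomain factor, read 61.8 and 66.3 units in TRAP and 10.6 on both input arrays and rose at least 1.28-fold. Neurog2, a proneural factor of progenitors, read 13.5 and 8.14 units in TRAP and 70.0 and 61.7 in input and was at least 1.31-fold lower in TRAP. Their limma adjusted p of 0.000647 and 0.0284 are for the deposited values. Shh, Otx1 and Neurog2 did not pass with values under 50 units raised to 50. Sox2, a factor of stem cells and glia, read 1108 and 139 units in TRAP and 2560 and 1705 in input, so that the TRAP arrays differed from each other more than the input arrays did (limma adjusted p = 0.264).

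**Figure D4:**
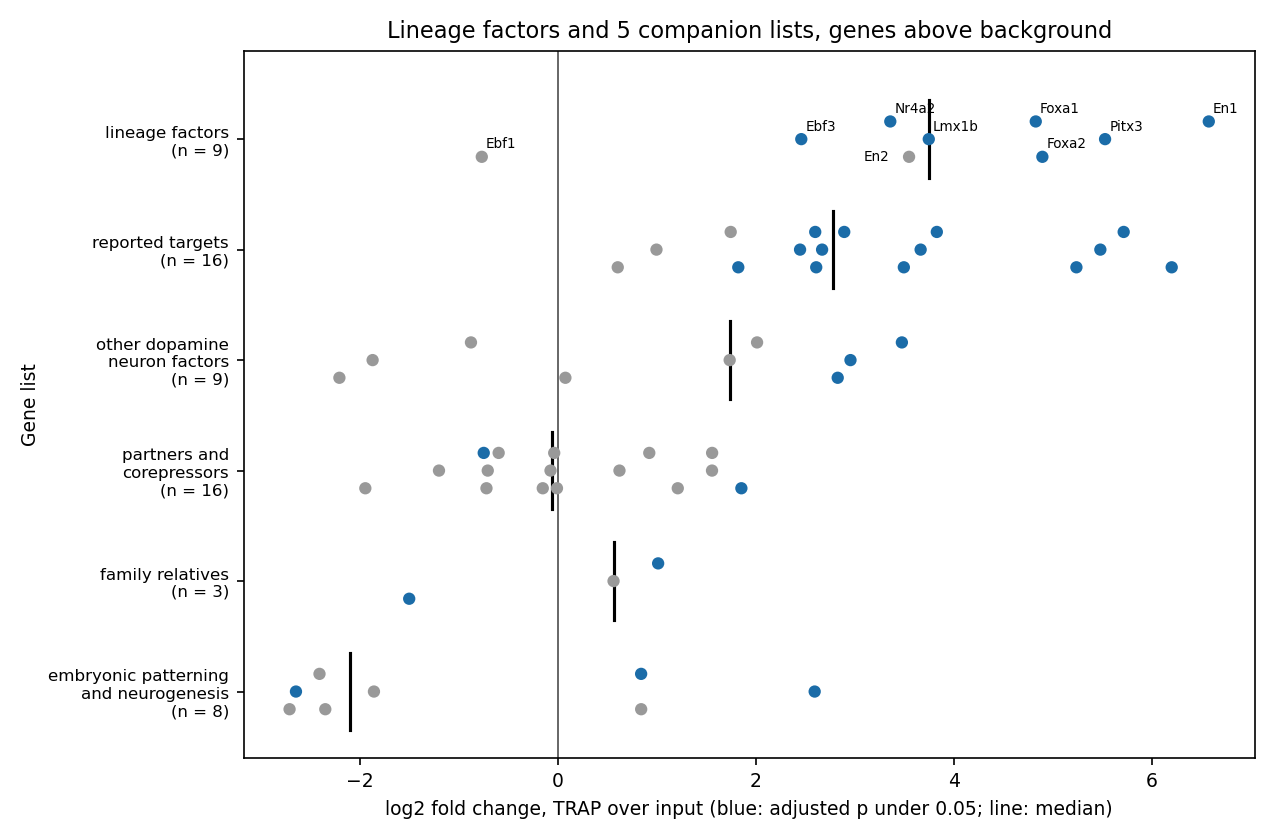
TRAP over input on the log2 scale for the lineage factors and the 5 companion lists, 1 point per gene above background on its brightest probe set, blue where the adjusted p from limma was under 0.05, with the median as a line. The factors have a median of 3.75, the reported targets 2.78, the partners and corepressors -0.06 and the embryonic patterning genes -2.11. Fitted values are drawn also where a fraction is under 50 units.

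The genes most like each factor over the 4 arrays were taken as the 3 with the smallest Euclidean distance between log2 values, among the brightest probe sets of all genes. This is a description of 4 points whose main difference is that between the fractions. For En1 the nearest was Gucy2c, a guanylate cyclase receptor (1300.0 and 2537 units in TRAP, 11.9 on both input arrays, distance 1.25), then Ldoc1 (1.81) and Foxa2 itself (1.82). Foxa1 was nearest to Fam210b (distance 0.99), Slc18a2 (1.41) and Chrna6, a nicotinic receptor subunit of dopamine neurons (1.46). Foxa2 was nearest to Ldoc1 (0.74), and Pitx3 to Slc39a4, a zinc transporter (0.52). For Nr4a2 the nearest were Tagln3 (0.60), Fgf13 (0.72) and Cadps2 (0.72), and for Lmx1b Chrna4, another nicotinic subunit (0.36). En2 was nearest to Pbdc1 (0.51), Ebf3 to Svop, a synaptic vesicle protein (0.26), and Ebf1 to Pfas, an enzyme of purine synthesis (0.21).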

How the data were processed

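Midbrain RNA was measured on 4 Affymetrix arrays, 2 of TRAP and 2 of input RNA, after linear amplification by kit. The authors processed the arrays with GCRMA (version not given in the sources used here), so each deposited value is a log2 expression level of a probe set. Of 45101 probe sets 64 controls were left out. A 2-sided moderated test in limma 3.58.1 (R 4.3.3) set TRAP against input, with the fraction as its only term, adjusted by Benjamini-Hochberg over 45037 probe sets, with a threshold of 0.05. Both fractions entered because there are only 2. Of the probe sets 15551 hold identical values within both fractions, and 9920 of these were called. Calls were counted only where both arrays of a fraction reached 50 units. Where no array of the other fraction did, only a change toward the brighter fraction could be counted. Where a fraction lay under 50 units on both arrays, the fold is the geometric mean of the other over 50 units. The p-value of the main fit for such a gene tests the deposited values and not that bound. The number of arrays limits the precision, and p-values measure the spread between arrays. Members, lists and named-gene rule (all members, and from each list up to 4 genes, passing genes by size of change before others by brightness) were chosen with earlier results of these data known. Genes whose transcripts share probes with a relative cannot be separated. Alternatives were other scalings, floors, priors, thresholds, probe set means, and each array left out.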

Additional observations from a re-analysis of the deposited data

How the results depend on the processing

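No fold change of the 9 factors above background changed sign under any alternative (99 values, 9 genes). Without 1 array, which leaves 1 residual degree of freedom and assumes that the lone array varies like the other fraction, the log2 fold changes ran from 6.21 to 6.94 for En1, 2.78 to 4.31 for En2, 4.31 to 5.35 for Foxa1, 4.76 to 5.02 for Foxa2, 3.13 to 3.59 for Nr4a2, 5.45 to 5.61 for Pitx3, 3.50 to 3.99 for Lmx1b, -0.91 to -0.63 for Ebf1 and 2.23 to 2.69 for Ebf3, and 2 to 4 factors (3 to 4 probe sets) passed as higher, with 0 to 2 probe sets lower and 0 genes lower. With values under 50 units raised to 50, Foxa1 (4.83), Nr4a2 (3.36), Lmx1b (3.75) and Ebf3 (2.46) missed the threshold at unchanged fold changes, since none of their own values changed. That setting left 3 genes and 4 probe sets higher and 0 probe sets lower. The 3 genes, En1, Foxa2 and Pitx3, had both input arrays set to 50 units and so no input spread. With an adjusted p under 0.01, 3 genes and 4 probe sets were higher and 0 lower, and with a background of 100 units 1 probe set was lower. En2 passed after centring (3.14), in a fit above background only (3.55) and with an intensity trend (3.55), and Ebf1 after quantile normalization (-1.06), after centring (-1.18), by averaging its probe sets (-1.01) and under an intensity trend (-0.77), so that 1 gene was lower there. Ebf3 missed the threshold with the mean of its probe sets (1.94). The cause was not tested. Of the 99 values 68 stayed on the same side of the threshold, which for Foxa2 and Pitx3 without a TRAP array follows from identical input values.

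Without 1 array, relatives higher were 0 to 1 and lower 0, patterning genes higher 1 to 2 and lower 0 to 1, partners higher 0 to 2 and lower 0 to 1, targets higher 6 to 7 and lower 0, and other dopamine neuron factors higher 1 to 2 and lower 0 to 1. With values raised to 50, 4 targets and 1 other factor rose, and 0 of the other lists rose or fell. With an adjusted p under 0.01, 5 targets, 1 other factor and 0 relatives or partners rose, and 0 relatives, patterning genes or partners fell. With a background of 100 units 0 relatives and 1 patterning gene rose and 0 patterning genes fell. After centring 3 partners and 5 other factors rose and 3 patterning genes, 4 partners and 3 other factors fell. In a fit above background only 3 partners and 5 other factors rose and 2 patterning genes and 0 partners fell. With an intensity trend the numbers were 3 and 5 higher and 2 patterning genes and 1 other factor lower. After quantile normalization 2 partners and 1 other factor fell, and averaging a gene's probe sets left 0 relatives and 1 other factor lower. No paired analysis was possible because the fractions share only 1 replicate number.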
